A study of Mus musculus with 4 samples.

Results

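The nuclear genes that encode the machinery of oxidative phosphorylation were examined in LPS-stimulated splenic B cells that did or did not lack IκB-ζ, a nuclear regulator of NF-κB target genes encoded by Nfkbiz. Genes were taken by symbol, as those that begin with Nduf, Uqcr, Cox4 to Cox8 or Atp5 together with Sdha, Sdhb, Sdhc and Sdhd. Of the 30041 genes with a deposited RNA-seq score, 90 matched by name. A minimum score of 0.005 in any of the samples was then required, and 81 of the 90 met it, out of 9727 genes in all that did. All 81 reached that score in each of the 4 samples, so none was kept for its level in one genotype alone. They comprised 74 subunits (36 of complex I, 4 of complex II, 8 of complex III, 11 of complex IV and 15 of complex V), 5 assembly factors (Ndufaf1, Ndufaf2, Ndufaf3, Ndufaf4 and Atp5sl), the supercomplex factor Cox7a2l, and Cox4nb, which shares only its name and its place next to Cox4i1 with the respiratory chain. Ndufa4 was counted in complex IV, where the protein is now placed.

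Oxidative phosphorylation takes place in the inner mitochondrial membrane. Complex I and complex II pass electrons from NADH and succinate to ubiquinone, complex III passes them to cytochrome c, complex IV passes them to oxygen, and complex V, the ATP synthase, uses the proton gradient that results. Most subunits are encoded in the nucleus, while a small set at the core of complexes I, III, IV and V is encoded by mitochondrial DNA, and only complex II is wholly nuclear. Activated B cells enlarge and divide, and respiration and mitochondrial mass are known to increase on LPS stimulation.

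There were 2 control and 2 cKO samples, all from mice of the C57BL/6 strain by the labels. Control mice carried 1 floxed and 1 deleted Nfkbiz allele (Nfkbiz fl/Δ), and cKO mice carried the same alleles together with Mb1-Cre, which is expressed from the Cd79a locus in the B lineage. The deleted allele was thus common to both groups, and the ages of the mice are not given in the sources used here. B cells were purified by negative depletion and cultured with LPS for 72 h. The dose is given as 20 μg/ml in the methods and as 20 mg/ml in the labels. Nothing states that samples 1 and 2 came from separate mice or cultures, so p-values measure the spread between these samples only. How much of that spread is technical is not known, and the control samples differed widely at H2-Ea-ps, as given below.

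The score has no stated unit. The products of low scores and exon lengths lie on steps, as reads per exon base scaled to the depth of a library would, and on that inference the 4 libraries held 17500000 to 19900000 reads. The member with the fewest reads, Ndufaf2, then had about 150 in its lowest sample. Nfkbiz, whose deletion defines the groups, scored 0.02409 and 0.02264 in the control samples and 0.0127 and 0.01156 in the cKO samples (log2 fold change −0.94, SE 0.0956, limma adjusted p = 0.0282). Of 9 B cell markers, all passed the filter and their summed scores were 5.59, 6.09, 5.39 and 5.59 in control 1, control 2, cKO 1 and cKO 2. None of 10 T and NK cell markers passed it, and their sums were 0.00316 and 0.00286 in control and 0.00528 and 0.00461 in cKO, higher in both cKO samples. Myeloid markers summed to 0.177 and 0.17 in control and 0.208 and 0.211 in cKO, and erythroid markers to 0.0134 in control 1 and 0.00218 to 0.00263 in the other samples. The part of these other cell types in the results was not tested. Control 2 stood apart at the MHC pseudogene H2-Ea-ps, with a score of 1.15 against 0.00008 in control 1 and 0 in both cKO samples. In the paper's list of genes lower in cKO, Msh5 and H2-M2 were also far higher in control 2 than in control 1. Gm5481, in the same list, was far higher in control 1. Results without each sample are therefore given below.

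Most of the 81 genes had slightly lower scores in cKO than in control B cells, but none passed the adjusted threshold. The log2 fold change was below 0 for 72 of the 81 genes (88.9%), against 51.8% of all 9727 genes. Its median was −0.19, which corresponds to 0.879-fold, and it ranged from −0.41 to 0.12. The median over all genes was −0.01. Both cKO samples lay below both control samples for 56 genes (69.1%, against 30.1% of all genes) and above them for 2 (Sdha and Ndufa6, against 28.1% of all genes), and the groups overlapped for 23.

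With a limma adjusted p under 0.05 (Benjamini-Hochberg), 0 of the 81 genes were lower in cKO and 0 were higher, where 1.25% of all genes were lower and 0.812% were higher. The smallest adjusted p was 0.123, for Ndufb2. At an unadjusted p under 0.05, 22 members were lower and 0 higher, a share of 27.2% for the lower ones against a background of 11.5% lower and 10.8% higher. Genes with high scores differed in the same direction as a whole. Among the 1933 genes with a score above 0.05 in a sample, 64.0% had a log2 fold change below 0, the median was −0.07, and 43.0% had both cKO samples below both control samples. The members were expressed at a higher level than the other genes (median of the mean score 0.066, against 0.0175 for all genes) and had shorter transcripts (median 963 bases, against 2867). After adjustment of the scores for GC content and transcript length, 62 of the 81 genes had a log2 fold change below 0, with a median of −0.09, and 9 were lower at an unadjusted p under 0.05, a share of 11.1% that equals the 11.1% of all genes. With the replicate number as a block, these shares were 12.3% of members and 9.04% of all genes, and with block and adjustment together 6.17% and 9.07%. In bulk RNA, less RNA per cell cannot be told apart from fewer cells of a kind that expresses more of it.

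**Figure D1:**
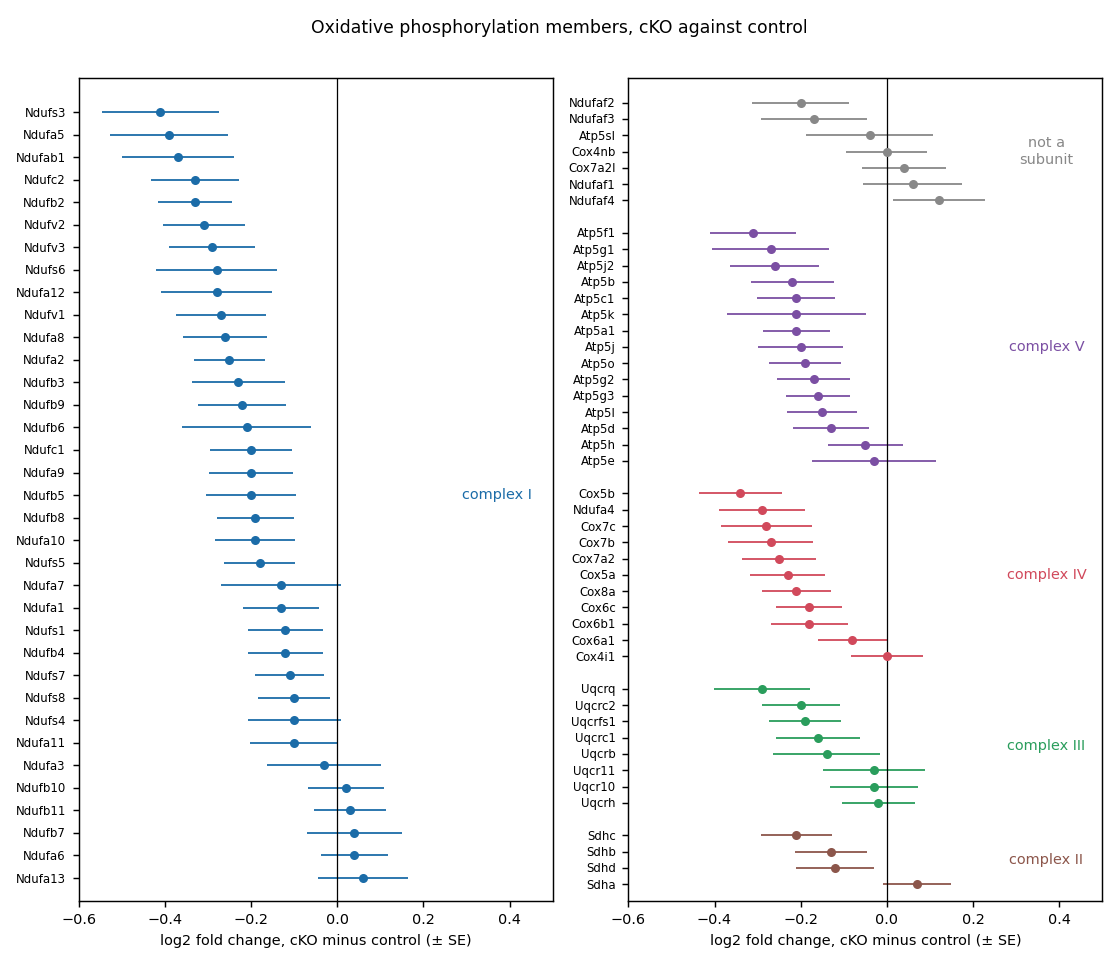
Log2 fold change of the score, cKO minus control, for 80 of the 81 genes past the score threshold (points: limma estimate, 2 samples per genotype; bars: ± SE), grouped by complex and ordered by estimate within a group. Most points lie left of the line at 0 in complexes I, III, IV and V, with Ndufs3 lowest at −0.41 and the assembly factor Ndufaf4 highest at 0.12.

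The 2 samples of a genotype also differed from each other, in a pattern common to most members. Scores were higher in control 1 than in control 2 for 68 of the 81 genes, by a median of 0.10 on the log2 scale, and higher in cKO 2 than in cKO 1 for 70, by a median of 0.11. Control 1 held the highest score of 62 genes and cKO 1 the lowest score of 59. Relative to each gene's mean over the 4 samples, the median deviation on the log2 scale was 0.142 in control 1, 0.031 in control 2, −0.146 in cKO 1 and −0.031 in cKO 2. For all genes these medians lay between −0.012 and 0.008. cKO 1 was thus farther from the control samples than cKO 2, which was below both of them for 57 genes, against 66 genes for cKO 1.

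**Figure D2:**
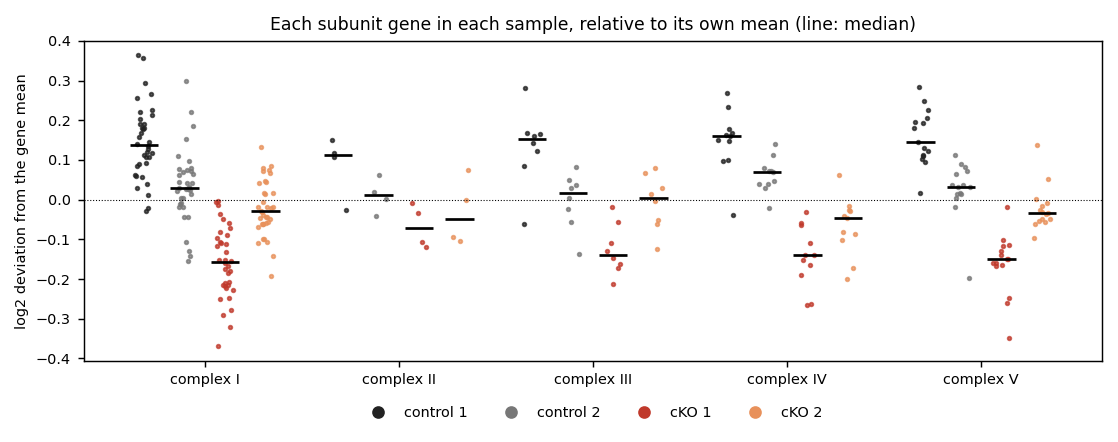
Log2 deviation of each subunit gene from its own mean over the 4 samples, by complex and sample (points: genes; lines: median of the genes). In all 5 complexes the medians follow one order, with control 1 highest, then control 2, then cKO 2, and cKO 1 lowest.

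Each of the 5 complexes showed a median below 0, and the summed score of its subunits was lower in cKO for all but complex II, where the samples overlapped. The summed scores of complex I were 2.21 and 2.05 in control 1 and 2 and 1.82 and 2.00 in cKO 1 and 2, so that the cKO mean was 89.6% of the control mean. Those of complex II were 0.282, 0.269, 0.259 and 0.269 in the same order (95.9%), and those of complex III were 0.742, 0.694, 0.636 and 0.686 (92.1%). In every case control 1 was highest and cKO 1 lowest.

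The summed scores of complex IV were 2.31, 2.21, 1.93 and 2.05 (87.9%), and those of complex V were 3.25, 2.97, 2.62 and 2.86 (88.1%). Over the 74 subunits together the sum was 8.50 ± 0.429 in control and 7.57 ± 0.426 in cKO (SD, n = 2), or 89.0% of control, and no exact permutation test of 2 samples against 2 can give a two-sided p below 0.33. The subunits took 1.41% and 1.29% of the total score in control and 1.20% and 1.27% in cKO.

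Relative to complex V, the sums of complexes I, II and III were higher in cKO, and that of complex IV overlapped between the genotypes. The ratio of summed scores of complex I to complex V was 0.680 and 0.690 in control and 0.693 and 0.699 in cKO. For complex II it was 0.0866 and 0.0904 in control and 0.0988 and 0.0939 in cKO, and for complex III 0.228 and 0.233 in control and 0.243 and 0.240 in cKO. These 3 ratios were higher in both cKO samples than in both control samples. The difference was largest relative to its level for complex II, with means of 0.0885 in control and 0.0963 in cKO. The ratio of complex IV overlapped (0.712 and 0.745 in control, 0.735 and 0.717 in cKO). The same limit of p = 0.33 in an exact permutation test applies to all 4 ratios.

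**Figure D3:**
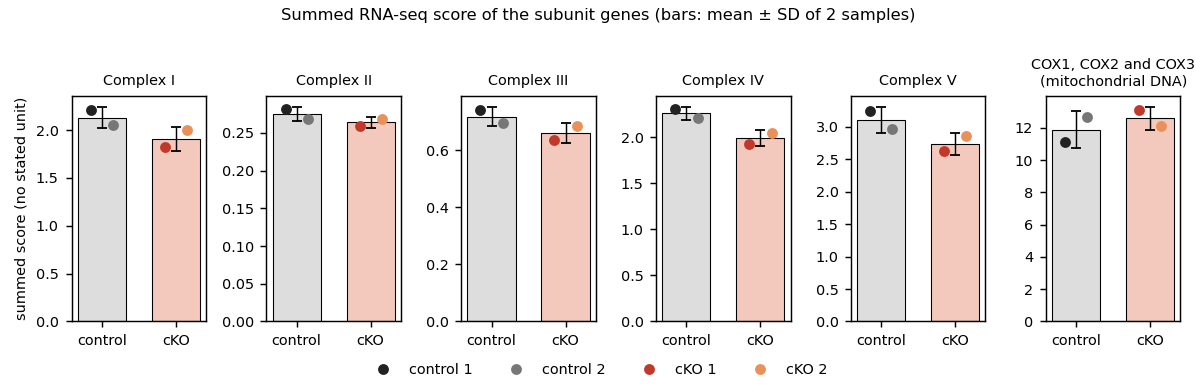
Summed RNA-seq score of the nuclear-encoded subunit genes of each complex and of the mitochondrially encoded COX1, COX2 and COX3 (bars: mean of 2 samples; error bars: SD; points: samples; each panel has its own axis from 0). The cKO bars reach 87.9 to 95.9% of the control bars for the 5 complexes and 106.0% for the mitochondrial genes, whose samples overlap.

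Because most members had the same sign, their promoters were searched for the motifs of the factors best known for respiratory genes. The windows, from RefSeq on the GRCm38.p6 assembly, run from 250 bases before to 50 bases after each annotated start, and were given for 69 of the 81 genes. The letters searched on both strands were, for NRF1, GCGCA and GCGC with any base between them, for GABPA (NRF2) CCGGAAGT and for YY1 AANATGGC. NRF1 letters were found at 18 of the 69 genes (26.1%, against 13.3% of 7278 genes past the score threshold and 5.19% of all 27025 genes with a window), YY1 letters at 19 (27.5%, 11.8% and 6.96%) and GABPA letters at 5 (7.25%, 10.9% and 4.31%). At least 1 motif was present at 40 genes and all 3 at none. The following stretches of 30 bases, read along the strand of the gene with the motif in capitals, come from the subunit with the highest log2 fold change, Sdha, which has the NRF1 letters at 3 places (chr13:74350319-74350348, chr13:74350276-74350305 and chr13:74350231-74350260, minus strand), from Ndufa5 and Ndufs3, which have the lowest (chr6:24527697-24527726 and chr2:90904703-90904732, both minus strand), and from the core subunit gene Ndufs7 (chr10:80249462-80249491, plus strand).
Sdha, NRF1 first: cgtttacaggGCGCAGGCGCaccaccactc
Sdha, NRF1 second: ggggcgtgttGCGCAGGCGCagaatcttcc
Sdha, NRF1 last: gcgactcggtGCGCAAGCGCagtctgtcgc
Ndufa5, NRF1: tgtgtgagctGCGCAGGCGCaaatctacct
Ndufs3, GABPA: tgcacatttccACTTCCGGtccgtgccctt
Ndufs7, YY1: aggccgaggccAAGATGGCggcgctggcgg

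The NRF1 letters were present in genes at both ends of the range of log2 fold changes, Sdha and Ndufa5. The median was −0.16 for genes with the NRF1 letters and −0.20 for those without, −0.19 with and −0.18 without the YY1 letters, and −0.05 with and −0.19 without the GABPA letters, the latter over 5 genes. No test was made of these medians. Nrf1 itself scored 0.02189 and 0.02879 in control and 0.01718 and 0.02072 in cKO (log2 fold change −0.41, limma adjusted p = 0.216). Of the 16 regulators of mitochondrial biogenesis in the list, 13 passed the filter. Their median was −0.07, 9 had a log2 fold change below 0, and 0 passed limma's adjusted threshold. At an unadjusted p under 0.05, 1 was lower (7.69%, against 11.5% of all genes). The nuclear receptor gene Esrra was at the upper end of that list with 0.20 (limma adjusted p = 0.287).

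Complex I is built from a matrix arm, which oxidizes NADH and reduces ubiquinone, and a membrane arm, which pumps protons. Its 7 nuclear-encoded core subunits carry the flavin, the iron-sulfur clusters and the quinone site. They had lower scores in both cKO samples than in both control samples in every case. The same held for 69.1% of all members, 30.1% of all genes and 43.0% of genes with a score above 0.05. Log2 fold changes of the core subunits ran from −0.41 to −0.10, with a median of −0.14. Of the 29 accessory subunits, 24 had a log2 fold change below 0 (median −0.20), and the groups overlapped for 9. In total 10 of the 36 subunits were lower at an unadjusted p under 0.05, and 0 passed the adjusted threshold. The share of 27.8% compares with 11.5% of all genes and 19.9% of those with a score above 0.05.

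Ndufs3, a core subunit of the quinone-reducing part, had the lowest log2 fold change of all members. Its scores were 0.06308 and 0.07201 in control and 0.04527 and 0.05692 in cKO (log2 fold change −0.41, SE 0.136, limma adjusted p = 0.173). Unlike most members, it was highest in control 2. On NCBIM37, the assembly also called mm9, the gene spans 90734791 to 90744984 of chromosome 2 (minus strand).

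Ndufv1 and Ndufv2, which form the NADH-oxidizing tip, were next among the core subunits. Ndufv1, with the flavin, scored 0.05696 and 0.05011 in control and 0.04208 and 0.04678 in cKO (−0.27, limma adjusted p = 0.216). Ndufv2 scored 0.06223 and 0.06199 in control and 0.04681 and 0.05338 in cKO (−0.31, limma adjusted p = 0.150), so that its control samples were nearly equal and the difference between cKO samples was the larger. Ndufs1, the largest iron-sulfur subunit, differed less, with scores of 0.02504, 0.02400, 0.02182 and 0.02320 in control 1, control 2, cKO 1 and cKO 2 (−0.12). For Ndufs7 and Ndufs8, which hold the clusters nearest to the quinone, the log2 fold changes were −0.11 and −0.10.

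Among the accessory subunits, Ndufa5, Ndufab1, Ndufc2 and Ndufb2 had the lowest log2 fold changes. Ndufa5, in the quinone-reducing part of the matrix arm, scored 0.03644 and 0.02877 in control and 0.02330 and 0.02623 in cKO (−0.39, SE 0.137, limma adjusted p = 0.191). Ndufab1, the mitochondrial acyl carrier protein, scored 0.04795 and 0.03779 in control and 0.03194 and 0.03390 in cKO (−0.37, SE 0.130, limma adjusted p = 0.188). In both genes control 1 was well above the other control sample, and the groups did not overlap.

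Ndufc2 and Ndufb2 belong to the membrane arm. The former scored 0.07644 and 0.06635 in control and 0.05445 and 0.05893 in cKO (−0.33, SE 0.103, limma adjusted p = 0.157). For Ndufb2 the scores were 0.04852 and 0.04517 in control and 0.03816 and 0.03655 in cKO (−0.33, SE 0.0859, limma adjusted p = 0.123), and here the samples of each genotype lay close together.

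At the other end, 5 accessory subunits had a log2 fold change above 0, of 0.02 to 0.06, each smaller than its standard error. Ndufa13, also known as GRIM-19, scored 0.07242 and 0.06182 in control and 0.06762 and 0.07177 in cKO (0.06, SE 0.105, limma adjusted p = 0.763), so that control 1 was the highest and control 2 the lowest sample. Ndufb7, the subunit of complex I with the highest mean score, scored 0.15244 and 0.13561 in control and 0.13724 and 0.16016 in cKO (0.04, SE 0.110, limma adjusted p = 0.834). Ndufa6 was above control in both cKO samples, at 0.06924 and 0.07159 against 0.06842 and 0.06863 (0.04, SE 0.0779, limma adjusted p = 0.786). Ndufb10 and Ndufb11 overlapped between the genotypes.

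Grouped by place in the complex, a grouping made with the values known, the 8 subunits of the NADH-oxidizing module had a median of −0.27 (8 of 8 below 0), the 8 of the quinone-reducing module −0.13 (7 of 8) and the 20 of the membrane arm −0.19 (16 of 20). The differences between these parts were not tested. The 5 assembly factors, which are not part of the mature enzyme, had a median of −0.04. Ndufaf4 had the highest log2 fold change of all members, with scores of 0.01472 and 0.01272 in control and 0.01527 and 0.01460 in cKO (0.12, SE 0.107, limma adjusted p = 0.514), and Ndufaf1 was also above 0 (0.06, SE 0.115, limma adjusted p = 0.789). Ndufaf2 and Ndufaf3 were at −0.20 and −0.17, with both cKO samples below both control samples, and Atp5sl, which despite its name serves complex I assembly, at −0.04. Of 6 further assembly factors of complex I, 4 were below 0 and the median was −0.02, with Acad9 at −0.24 and Tmem126b at 0.43 (limma adjusted p = 0.247 and 0.214).

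Complex II, succinate dehydrogenase, also belongs to the TCA cycle, and as processed here its median of −0.12 was the nearest to 0. Complex III was nearer after adjustment for GC content and length (−0.03, against −0.04) and without cKO 1 (−0.04, against −0.11). The catalytic flavoprotein gene Sdha scored 0.10558 and 0.10437 in control and 0.10681 and 0.11314 in cKO (log2 fold change 0.07, SE 0.0791, limma adjusted p = 0.643). Both cKO samples were thus above both control samples, by less than the standard error. The iron-sulfur subunit gene Sdhb scored 0.06146 and 0.05786 in control and 0.05574 and 0.05343 in cKO (−0.13, SE 0.0833, limma adjusted p = 0.405), in the opposite order.

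The membrane anchor genes Sdhc and Sdhd went the same way as Sdhb. Sdhc scored 0.04040 and 0.03799 in control and 0.03379 and 0.03388 in cKO (−0.21, SE 0.0830, limma adjusted p = 0.216), and Sdhd scored 0.07406 and 0.06829 in control and 0.06276 and 0.06816 in cKO (−0.12, SE 0.0909, limma adjusted p = 0.463). For Sdhd the higher cKO sample nearly reached the lower control sample. The score of Sdha over the mean of the other 3 subunits was 1.80 and 1.91 in control and 2.10 and 2.18 in cKO. On NCBIM37 Sdha spans 74459702 to 74487728 of chromosome 13 (minus strand).

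In complex III, the cytochrome bc1 complex, both cKO samples lay below both control samples for 4 of the 8 genes. That share was 50.0%, against 30.1% of all genes and 43.0% of those with a score above 0.05. At an unadjusted limma p under 0.05, 1 was lower (12.5%, against 11.5% and 19.9%), and 0 passed the adjusted threshold. The groups did not overlap for the core protein genes Uqcrc1 and Uqcrc2, for Uqcrfs1, which encodes the Rieske iron-sulfur protein, or for Uqcrq. Uqcrc1 scored 0.08343 and 0.07861 in control and 0.06799 and 0.07735 in cKO (−0.16, limma adjusted p = 0.378). Uqcrc2 scored 0.07610 and 0.06921 in control and 0.06126 and 0.06548 in cKO (−0.20, limma adjusted p = 0.273), and Uqcrfs1 scored 0.06859 and 0.06427 in control and 0.05672 and 0.05949 in cKO (−0.19, limma adjusted p = 0.249). In these 3 genes, as in most members, control 1 was highest and cKO 1 lowest.

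Uqcrq, a small subunit, had the lowest log2 fold change of complex III. Its scores were 0.10642 and 0.08780 in control and 0.07820 and 0.08019 in cKO (−0.29, SE 0.112, limma adjusted p = 0.215). Uqcrb, Uqcr10, Uqcr11 and the hinge protein gene Uqcrh overlapped between genotypes, with log2 fold changes of −0.14, −0.03, −0.03 and −0.02. Uqcrh had the highest level of the complex, with scores of 0.15891, 0.17558, 0.16379 and 0.16533 in control 1, control 2, cKO 1 and cKO 2, and both cKO samples lay between the control samples. The direction of these 4 genes, and the median of the complex, depended on the adjustment for GC content and length, under which the median was −0.03.

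Cytochrome c1 and cytochrome c, the next carriers in the chain, are encoded by Cyc1 and Cycs, outside the names searched. Cyc1 scored 0.09989 and 0.09862 in control and 0.09155 and 0.09829 in cKO (−0.07, limma adjusted p = 0.658). The mobile carrier gene Cycs scored 0.16496 and 0.12696 in control and 0.08665 and 0.11529 in cKO (−0.53, SE 0.180, limma adjusted p = 0.178), a wider range within each genotype than in most members.

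Complex IV, cytochrome c oxidase, had a median of −0.23, the lowest of the 5 complexes as processed here, but not after adjustment for GC content and length (complex IV −0.11, complex V −0.13), after quantile normalization (complex IV −0.16, complex I −0.17) or without cKO 2 (complex IV −0.24, complex I −0.26, complex V −0.25). In 10 of its 11 nuclear-encoded subunits, all but Cox4i1, both cKO samples lay below both control samples. That share was 90.9%, against 30.1% of all genes and 43.0% of those with a score above 0.05. At an unadjusted p under 0.05, 7 of the 11 were lower (63.6%, against 11.5% of all genes and 19.9% of those with a score above 0.05), and 0 passed the adjusted threshold. Whether complex IV differed from the other complexes was not tested.

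Cox5b, a peripheral subunit that binds zinc, was the lowest of complex IV. It scored 0.15015 and 0.13105 in control and 0.11327 and 0.10847 in cKO (−0.34, SE 0.0960, limma adjusted p = 0.134). Cox5a scored 0.10641 and 0.09993 in control and 0.09145 and 0.08445 in cKO (−0.23, SE 0.0868, limma adjusted p = 0.206). In both genes cKO 2 was the lowest sample, in contrast to most members.

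Ndufa4, which was long assigned to complex I, followed the other subunits of complex IV. Its scores were 0.25090 and 0.24925 in control and 0.18819 and 0.22155 in cKO (−0.29, SE 0.100, limma adjusted p = 0.183). Cox6c, the most highly scored subunit of the complex, was at 0.44887 and 0.44359 in control and 0.38096 and 0.40778 in cKO (−0.18, SE 0.0768, limma adjusted p = 0.242). For both of these genes the control samples were nearly equal, and the cKO samples lay apart from each other and below them.

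Cox4i1, the ubiquitous isoform of the largest nuclear-encoded subunit, was the exception. It scored 0.27659 and 0.29203 in control and 0.27176 and 0.29689 in cKO (log2 fold change −0.00, SE 0.0845, limma adjusted p = 0.997), so the cKO samples were the lowest and the highest of the 4. Cox6a1 was at 0.26031 and 0.23952 in control and 0.23774 and 0.23549 in cKO (−0.08, SE 0.0808, limma adjusted p = 0.592). Cox6b1, Cox7a2, Cox7b, Cox7c and Cox8a had log2 fold changes of −0.18 to −0.28.

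Several subunits of complex IV exist as isoforms, and in the Cox4, Cox6a, Cox6b, Cox7b and Cox8 families 1 gene held at least 98.8% of the summed score in every sample. The muscle and testis isoform genes Cox6a2, Cox7b2, Cox8b and Cox8c were listed at 0 in all 4 samples, while Cox4i2 and Ndufa4l2 did not exceed 0.00015. Cox7a1, the muscle isoform, and Cox6b2, the testis isoform, were below the score threshold of 0.005 with largest scores of 0.00137 and 0.00197. The nearest gene below it was Atp5s with 0.00316, and the nearest above it were Ndufaf3 with 0.01074, Ndufaf1 with 0.01355 and Ndufaf2 with 0.01487. Cox6b2 made up 0.696 to 1.18% of the Cox6b family. The leading gene of each of these families was the same in both genotypes.

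In the Cox7a family 2 genes were expressed. Cox7a2, the subunit of complex IV, scored 0.07435 and 0.06917 in control and 0.05869 and 0.06189 in cKO (−0.25, SE 0.0856, limma adjusted p = 0.182). Cox7a2l, also called SCAF1, is classed here as a supercomplex factor, and its function in these mice was not examined. It scored 0.17672 and 0.20622 in control and 0.19748 and 0.19577 in cKO (0.04, SE 0.0982, limma adjusted p = 0.817). The score of Cox7a2l over that of Cox7a2 was 2.38 and 2.98 in control and 3.36 and 3.16 in cKO, higher in both cKO samples. The reads of these related genes were counted by the authors, and how shared reads were treated is not given in the sources used here.

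The mitochondrially encoded partners of complex IV did not follow the nuclear subunits. COX1 scored 4.82 and 5.73 in control and 6.09 and 5.36 in cKO (log2 fold change 0.12, limma adjusted p = 0.546), and the sum of COX1, COX2 and COX3 was 11.1 and 12.7 in control and 13.1 and 12.1 in cKO. Here control 1 was the lowest sample and cKO 1 the highest, the opposite of the nuclear sums, while control 2 was above cKO 2 in both. The ratio of the nuclear complex IV sum to the COX1 to COX3 sum was 0.209 and 0.174 in control and 0.147 and 0.169 in cKO, lower in both cKO samples. Of the 7 mitochondrial genes listed, 4 were below 0, with a median of −0.04 and ND3 lowest at −0.20 (limma adjusted p = 0.206).

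Among 12 genes for the assembly of complex IV, the median was −0.24. Of these, 8 were below 0 (66.7%, against 51.8% of all genes and 64.0% of those with a score above 0.05). Both cKO samples lay below both control samples for 6 (50.0%, against 30.1% of all genes and 43.0% of those with a score above 0.05) and above them for 2. Cox18, which inserts part of COX2 into the membrane, was lowest, with scores of 0.00839 and 0.00923 in control and 0.00544 and 0.00610 in cKO (−0.60, SE 0.134, limma adjusted p = 0.0943). Cox17, the copper chaperone, was highest, with 0.12676 and 0.15236 in control and 0.20035 and 0.15598 in cKO (0.35, SE 0.151, limma adjusted p = 0.247). In neither gene did the samples of the genotypes overlap, and neither passed the adjusted threshold. The 4 listed assembly factors of complexes II and III that passed the filter had a median of 0.04 (from Bcs1l at −0.18 to Sdhaf1 at 0.13), and the 3 of complex V a median of −0.05 (from Atpaf1 at −0.11 to Oxa1l at 0.11).

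Complex V had the highest summed score of the 5 complexes. As processed here, all 15 of its subunit genes had a log2 fold change below 0, with a median of −0.20. After quantile normalization, after adjustment for GC content and length, or without cKO 1, 13 were below 0, and without control 1, 14 were. Both cKO samples lay below both control samples for 11 of the 15 genes (73.3%, against 43.0% of genes with a score above 0.05). At an unadjusted p under 0.05, 3 were lower (20.0%, against 19.9% of genes with a score above 0.05), while 0 passed the adjusted threshold. The catalytic F1 head (Atp5a1, Atp5b, Atp5c1, Atp5d and Atp5e) had a median of −0.21 and the other 10 subunits −0.19.

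Atp5b, the catalytic β subunit and the member with the highest score of all, was at 0.53748 and 0.47030 in control and 0.41446 and 0.44886 in cKO (−0.22, SE 0.0965, limma adjusted p = 0.249). Atp5a1, the α subunit, was at 0.40046 and 0.38959 in control and 0.33152 and 0.35402 in cKO (−0.21, SE 0.0775, limma adjusted p = 0.207). Atp5c1, the γ subunit of the central stalk, was at 0.12891 and 0.11619 in control and 0.10260 and 0.10891 in cKO (−0.21, SE 0.0904, limma adjusted p = 0.241). The groups did not overlap in these 3 genes, and the mean of Atp5a1 and Atp5b over Atp5c1 stayed between 3.64 and 3.70 in all 4 samples.

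Atp5f1, subunit b of the peripheral stalk, had the lowest log2 fold change of complex V, with scores of 0.18845 and 0.17774 in control and 0.13731 and 0.15906 in cKO (−0.31, SE 0.0996, limma adjusted p = 0.166). Atp5o, the stalk subunit OSCP, was at 0.13016 and 0.12892 in control and 0.10848 and 0.11867 in cKO (−0.19, limma adjusted p = 0.251). Atp5e and Atp5h were nearest to 0 with −0.03 and −0.05, and their groups overlapped. For Atp5e the whole range of the 4 samples was set by the controls, at 0.29367 and 0.21895.

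The ring of c subunits is encoded by Atp5g1, Atp5g2 and Atp5g3, whose products differ only in the presequence that is removed on import. Atp5g3 held 53.1 and 55.2% of their summed score in control and 55.2 and 54.0% in cKO, Atp5g2 held 34.7 to 35.2% in all samples, and Atp5g1 held 9.82 to 11.8%. The sum of the 3 genes was 0.619 and 0.587 in control and 0.515 and 0.553 in cKO. The shares thus overlapped between the genotypes, whereas the sum did not. Single log2 fold changes were −0.27 for Atp5g1, −0.17 for Atp5g2 and −0.16 for Atp5g3.

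Small ATP synthase proteins outside the names searched had values of the same sign. Usmg5 (DAPIT) was at −0.26 and 2010107E04Rik, a small proteolipid of the enzyme, at −0.38 (limma adjusted p = 0.183 and 0.145), while the inhibitor gene Atpif1 was at −0.10 (limma adjusted p = 0.466). In all 3 genes both cKO samples lay below both control samples, as in 43.0% of genes with a score above 0.05.

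Levels, given as mean scores and read per exon base on the inference above, differed more between subunits than between genotypes. The median subunit had a mean score of 0.0522 in complex I, 0.0627 in complex II, 0.0724 in complex III, 0.170 in complex IV and 0.163 in complex V. Within complex I the mean score ranged from 0.0235 for Ndufs1 to 0.146 for Ndufb7, a ratio of 6.22, and within complex V from 0.0607 for Atp5g1 to 0.468 for Atp5b, a ratio of 7.71. The range within complex II was the narrowest, from 0.0365 for Sdhc to 0.107 for Sdha.

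Genes that supply the respiratory chain had values in the same range. Of 16 genes of the TCA cycle and pyruvate dehydrogenase, 14 had a log2 fold change below 0, with a median of −0.19, and 0 passed limma's adjusted threshold. At an unadjusted p under 0.05, 3 were lower (18.8%, against 11.5% of all genes and 19.9% of those with a score above 0.05). Suclg2, a subunit of succinyl-CoA ligase, was lowest at −0.31 (limma adjusted p = 0.136) and Ogdh, of the 2-oxoglutarate dehydrogenase complex, highest at 0.03 (limma adjusted p = 0.841). All 6 carriers and porins of the list were below 0 (median −0.16), with the ADP/ATP carrier gene Slc25a4 at −0.42 (scores 0.12488 and 0.11414 in control, 0.08109 and 0.09748 in cKO, limma adjusted p = 0.126) and Vdac1 at −0.11 (limma adjusted p = 0.565).

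The proliferation genes of the list had the same sign and the same order of samples. All 25 of the list had a log2 fold change below 0, with a median of −0.26, and 0 passed the adjusted threshold (smallest limma adjusted p 0.0691). At an unadjusted p under 0.05, 13 were lower (52.0%, against 11.5% of all genes and 19.9% of those with a score above 0.05). Their summed scores were 2.22 and 2.08 in control 1 and 2 and 1.66 and 1.91 in cKO 1 and 2, the order also shown by the sums of complexes I, III, IV and V. Bub1, a spindle checkpoint kinase, was at −0.50 (limma adjusted p = 0.114), and Foxm1 and the thymidylate synthase gene Tyms were highest at −0.10 (limma adjusted p = 0.505 and 0.548). Their part in the values of the respiratory genes was not tested. Of the 9 B cell markers, Cd79a, at whose locus Mb1-Cre is inserted, was the one past the adjusted threshold (−0.78, limma adjusted p = 0.0294), Cd79b was highest at 0.28 (limma adjusted p = 0.234) and the median was −0.06. Of the myeloid markers, Lyz1 and Lyz2 were at 1.46 and 1.39 (limma adjusted p = 0.0986 and 0.0961), with Itgam at 0.00, and of the erythroid ones Hbb-b1 and Hbb-b2 were at −1.71 and −1.94 (limma adjusted p = 0.326 and 0.290).

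Leaving out 1 sample at a time changed the size of the median difference but not its direction. Without control 1 the median of the 81 genes was −0.12 and 67 were below 0, and without cKO 1 the median was −0.11 and 65 were below 0. Without control 2 it was −0.23 (71 below 0) and without cKO 2 it was −0.24 (74 below 0). At an unadjusted p under 0.05, 5 members were lower without control 1 (6.17%, against 8.00% of all genes) and 2 without cKO 1 (2.47%, against 5.34%), shares below those of all genes. Without control 2 there were 30 (37.0%, against 14.2%) and without cKO 2 there were 13 (16.0%, against 10.1%). Without control 2, 4 members (4.94%, against 4.02% of all genes) passed the adjusted threshold, namely Ndufab1 (−0.54, limma adjusted p = 0.0324), Ndufa5 (−0.56, limma adjusted p = 0.0421), Cox5b (−0.44, limma adjusted p = 0.0437) and Uqcrq (−0.43, limma adjusted p = 0.0458), with the lone control sample assumed to vary like the cKO group.

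**Figure D4:**
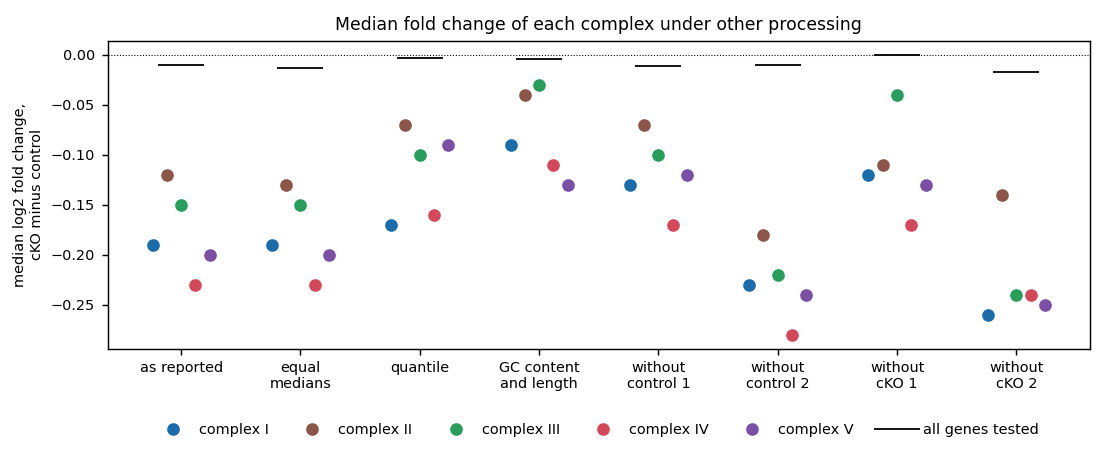
Median log2 fold change, cKO minus control, of the subunit genes of each complex (coloured points) and of all genes tested (black lines) under the processing reported here, 3 other scalings and the omission of each sample. All medians of the complexes lie below 0 and below those of all genes, and the order of the complexes differs between settings. After adjustment for GC content and transcript length complex III is at −0.03 and complex V at −0.13.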

How the data were processed

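RNA-seq was analysed in 2 control and 2 cKO samples, grouped by their titles. The authors purified poly(A) RNA, mapped the reads to mm9 with TopHat2 (2.0 in the submitters' processing notes, which also name CASAVA 1.8, Bowtie, SAMtools and bedtools), removed rRNA and tRNA reads and deposited a score for each gene and sample. How the score was computed is not given in the sources used here. Depth (17500000 to 19900000 reads) was inferred from the steps of low scores, of which 75.4 to 82.1% lay within 0.2 of a whole number, and it limits counting precision only.

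The test ran over all 9727 genes whose largest score was 0.005 or more. Values were taken as log2(score + 0.0001) and fitted with the linear models of limma (3.58.1, run in R 4.3.3), whose moderated variances followed a trend on the mean. P-values were adjusted by Benjamini-Hochberg over all these genes, with a threshold of 0.05. Fold changes on this scale understate those of low genes. The procedure was tested on simulated data with independent noise and changes larger than those of the members. Effects as small as theirs, shared by many genes of a sample, were not covered. Python 3.11.15 served for sums and medians (pandas 2.3.3 and numpy 2.4.6) and for figures (matplotlib 3.10.9). Gene positions are from the GENCODE annotation of NCBIM37 (80 of 81 members matched by symbol), and promoter windows are from RefSeq (GRCm38.p6). A gene with several annotated starts was counted as having a motif when any of its windows held it.

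The members, gene lists and tests were chosen with earlier results of these data known. After their values were seen, 1810027O10Rik (Tmem256 in RefSeq) and Pet112l, a gene of mitochondrial tRNA amidation, were taken out of the lists for ATP synthase and complex IV assembly, to which they do not belong. Members named are those with the 5 lowest and the 5 highest log2 fold changes, all of complexes II and III and the core of complex I, the 3 highest and 3 lowest mean scores in each complex, isoform families, and the 3 genes on each side of the score threshold. A gene that this rule covers is left out of the text and plots by name. Further members were named after their values were seen, as examples of a role. From each list the lowest and highest log2 fold change and the genes past the threshold were named. Alternatives were other pseudocounts, filters and scalings, an adjustment by loess for GC content and transcript length, no variance trend, a replicate block and the omission of each sample.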

Additional observations from a re-analysis of the deposited data

How the results depend on the processing

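Counts of members past the adjusted threshold were 0 lower under every alternative except the omission of control 2 (range 0 to 4 over the omissions), and 0 higher throughout. Over all genes the counts were less stable. The 122 lower and 79 higher became 0 and 0 by limma without a filter on the score (7.13% of 21582 genes were lower at an unadjusted p under 0.05) and 22 and 11 without a variance trend, and 35 were higher with a filter above 0.05. Omitting single samples gave 0 to 391 lower and 0 to 439 higher genes. Same-numbered samples of the genotypes deviated in opposite directions (Pearson's r −0.145, Spearman's rho −0.291 across 9727 genes, which are not independent replicates), so that the numbers do not pair them. With the replicate block, 180 genes were lower and 177 higher and 10 members were lower at an unadjusted p under 0.05. A block with crossed numbers, chosen after seeing the data, gave 230 and 212 genes, and the replicate block with adjustment for GC content and length gave 218 and 226.

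The medians of the complexes were below 0 under all alternatives run. After adjustment for GC content and length, with or without the replicate block, they were −0.09 for complex I, −0.04 for complex II, −0.03 for complex III, −0.11 for complex IV and −0.13 for complex V, and after quantile normalization −0.07 for complex II, −0.16 for complex IV and −0.09 for complex V. Omitting single samples gave −0.24 to −0.04 for complex III. The cause was not tested.

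Single values were followed for 49 members named by the rule above. Atp5e, Atp5f1, Atp5h, Atp5sl, Cox7c, Ndufa6, Ndufb2, Ndufb10 and Ndufb11 were not among them. Of 724 values of the 49 under the alternatives, 691 kept their sign and side of the threshold. In 11 of the 49, 29 values changed sign, in no case past the threshold. With quantile normalization these were Cox4i1 (0.11), Cox6a1 (0.00), Uqcr10 (0.05) and Uqcrh (0.06). The adjustment for GC content and length gave, whether blocked by replicate or not, Cox4i1 (0.07), Ndufs4 (0.01), Uqcr10 (0.05), Uqcr11 (0.03), Uqcrb (0.03) and Uqcrh (0.11). Over the omissions of single samples the range was −0.06 to 0.06 for Cox4i1, −0.12 to 0.06 for Uqcr10, −0.17 to 0.12 for Uqcr11, −0.09 to 0.05 for Uqcrh, −0.23 to 0.02 for Ndufs4, −0.07 to 0.15 for Cox7a2l, −0.06 to 0.17 for Ndufa13, −0.06 to 0.18 for Ndufaf1 and −0.07 to 0.16 for Ndufb7.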
